A study of Mus musculus with 13 samples.

Results

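The 8 genes described here have names tied to cell proliferation and were followed by RNA sequencing of CD45-positive cells sorted from subcutaneous EL4 tumours: Ccne2, Skp2, Orc3, Mms22l, Casp8ap2, Smc2, Melk and Ccnc. They are 8 of the 56923 gene IDs counted, 7 on chromosome 4 and 1, Skp2, on chromosome 15, and were chosen because they lie in stretches of the genome where gene names matched the counts. EL4 is a mouse T-cell lymphoma line, so the tumour cells themselves carry CD45 and a sort on it keeps lymphoma cells and host leukocytes together. The vector group held 7 libraries from tumours of EL4 cells carrying a vector, and the PSGL1_KO group 6 libraries from tumours of EL4 cells in which PSGL1, a selectin ligand of leukocytes, was knocked out. In both groups 500000 cells were injected under the skin of mice 6 to 8 weeks old, and tumours were taken about 20 days later. The labels number each library as a replicate and do not say whether each came from a separate tumour. They also do not give the strain of the mice, whether the knockout line is 1 clone, or whether tumours shared a mouse. The p-values therefore cover only the spread among libraries, part of which may be technical.

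As background, cells enter S phase when cyclin E activates the kinase CDK2, and the ubiquitin ligase built on SKP2 clears the CDK inhibitor p27. Origins of replication are marked by the origin recognition complex, new histones are supplied through dedicated processing of their messages, and condensin compacts the chromosomes in mitosis. Transcripts of many of these genes are higher in dividing than in resting lymphocytes, and E2F factors are known to drive a large part of that program.

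The deposited counts carry a second division besides the groups. Each library has a file number whose first digit is 3 in replicates 1 and 2 of either group, 4 libraries in all, and 7 in the other 9 (5 vector, 4 PSGL1_KO). The labels do not say what the number stands for. It is given here only as a split of the libraries, and it cannot be told apart from whatever else separated them. Total gene counts ran from 3710817 to 5712566 per library (median 4584464). IDs assigned to the mitochondrial genome took 34.5% of the counts of vector replicate 5 and at most 17.8% elsewhere. Gene names were borne out by the counts only in parts of the genome. Inside the stretches Rps20 and Pabpc1, abundant in nearly every cell, had means of 7024 and 6930 counts per 1000000 gene counts of the library (CPM). The IDs named Actb and Eef2, outside them, had at most 22 and 3 counts in any library. Not every ID outside was near 0, as the one named Gapdh had 508 to 1102 counts. IDs outside the stretches still entered the scaling and the shares over all IDs. Of 47 standard cycle genes and partners listed for comparison, among them Mki67, Top2a, Pcna, Cdkn1b and the Mcm genes, 0 lie in the stretches on chromosomes 4, 6 and 15, and their values are not interpreted. The same holds for the ID of the targeted gene and for those of the T-cell and macrophage markers Cd3e and Adgre1, so neither the knockout nor the sort was checked by its defining gene.

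The promoters of 4 of the 5 genes that were lower with file number 7 (below) are shown, as the start regions from which these transcripts are read. These genes were picked by their values in these same libraries. RefSeq entries on GRCm38.p6 were matched for 7 of the 8 genes, all but Ccne2. Each sequence is the first 230 bases of a window of 250 bases before the RefSeq start, 5′ to 3′ on the gene's strand. The windows printed lie at chr4:34614963-34615192 (minus strand) for Orc3, chr4:32615220-32615449 (plus strand) for Casp8ap2, chr4:52438971-52439200 (plus strand) for Smc2 and chr4:21727451-21727680 (plus strand) for Ccnc. Capitals mark matches to an E2F word, to the CHR element and to the CCAAT box, on either strand.
Orc3: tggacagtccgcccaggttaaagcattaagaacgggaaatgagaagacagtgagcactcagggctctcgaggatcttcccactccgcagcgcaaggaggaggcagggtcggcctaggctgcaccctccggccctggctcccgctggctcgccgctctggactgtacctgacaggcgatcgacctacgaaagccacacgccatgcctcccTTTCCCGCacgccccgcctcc
Casp8ap2: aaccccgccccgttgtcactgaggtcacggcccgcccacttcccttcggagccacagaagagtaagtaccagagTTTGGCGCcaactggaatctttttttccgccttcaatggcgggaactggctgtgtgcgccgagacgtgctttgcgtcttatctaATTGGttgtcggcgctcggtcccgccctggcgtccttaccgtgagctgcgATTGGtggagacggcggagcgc
Smc2: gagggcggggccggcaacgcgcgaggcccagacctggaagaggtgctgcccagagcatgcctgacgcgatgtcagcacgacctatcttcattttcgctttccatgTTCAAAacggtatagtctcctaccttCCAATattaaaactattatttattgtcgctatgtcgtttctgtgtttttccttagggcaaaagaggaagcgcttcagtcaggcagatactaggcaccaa
Ccnc: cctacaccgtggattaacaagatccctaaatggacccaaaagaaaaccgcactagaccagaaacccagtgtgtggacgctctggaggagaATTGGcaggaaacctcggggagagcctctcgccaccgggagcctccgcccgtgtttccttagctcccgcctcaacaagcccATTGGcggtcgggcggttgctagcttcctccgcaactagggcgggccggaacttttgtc
The E2F words searched were TTTCCCGC, TTTCGCGC, TTTGCCGC and TTTGGCGC, and 1.86% of 32817 promoter windows of the same length held one on either strand. Orc3 and Casp8ap2 held one each, beginning 41 and 176 bases before the start, and the windows of the other 5 matched genes held none of these letters. The CHR words TTTGAA and TTTAAA, found in 25.2% of windows, occurred in Smc2 and Skp2. CCAAT, found in 33.8% of windows, occurred in Casp8ap2, Ccnc, Skp2 and Smc2. Skp2 has 2 RefSeq starts, and its matches all lay in the window of the start printed as chr15:9155446-9155675, with none in the other. The words searched do not overlap one another in the sequences shown. A match is a description of letters and not a site in use.

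No change of these genes was detected in tumours of PSGL1_KO cells: 0 of 8 passed in the comparison with vector, against 14.5% of all 10422 gene IDs tested. Log2 fold changes (log2FC, PSGL1_KO minus vector) ran from -0.12 in Smc2 and Ccne2 to 0.25 in Skp2, with 4 negative and 4 positive. Their median was -0.03, beside -0.01 over all IDs and 0.23 over the 307 name-checked protein-coding genes tested, of which 25.1% passed. The test was edgeR's quasi-likelihood test with Benjamini-Hochberg adjustment over all IDs and a threshold of 0.05; 0 of the 8 had an unadjusted p below 0.05, and 0 passed with DESeq2. In 0 of 8 did all PSGL1_KO libraries lie above or all lie below the vector libraries, which 6.54% of all IDs did. In bulk RNA of a sort, fewer cells of a type and less RNA per cell cannot be told apart. With the first digit of the file number as a covariate again 0 of 8 passed, with 25.8% of all IDs called, as did 0 of 8 within file number 7 (20.8% of IDs) and 0 of 8 within file number 3 (23.2% of IDs).

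Between file numbers some of the 8 genes did differ, as did many other IDs, while Melk, Skp2 and Mms22l did not pass. With the group in the model, 5 of 8 were lower in libraries with a 7 than in those with a 3 and 0 were higher: Casp8ap2, Smc2, Ccnc, Orc3 and Ccne2. Over all IDs 39.8% passed in this comparison, 18.9% as lower. Among name-checked protein-coding genes 51.8% passed, 37.8% as lower. The median log2FC (7 minus 3) was -0.70 over the 8 genes, -0.22 over name-checked protein-coding genes and 0.04 over all IDs. The shift was present in both groups. Within vector libraries alone 5 of 8 passed as lower, beside 12.1% of all IDs (26.3% in either direction). Of name-checked protein-coding genes 66 of 307 did so, and Melk passed there as higher. Within PSGL1_KO libraries alone 5 of 8 passed as lower, beside 12.9% of all IDs (27.7% in either direction) and 101 of 320 name-checked protein-coding genes. The 5 lower genes were the same each time.

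**Figure D1:**
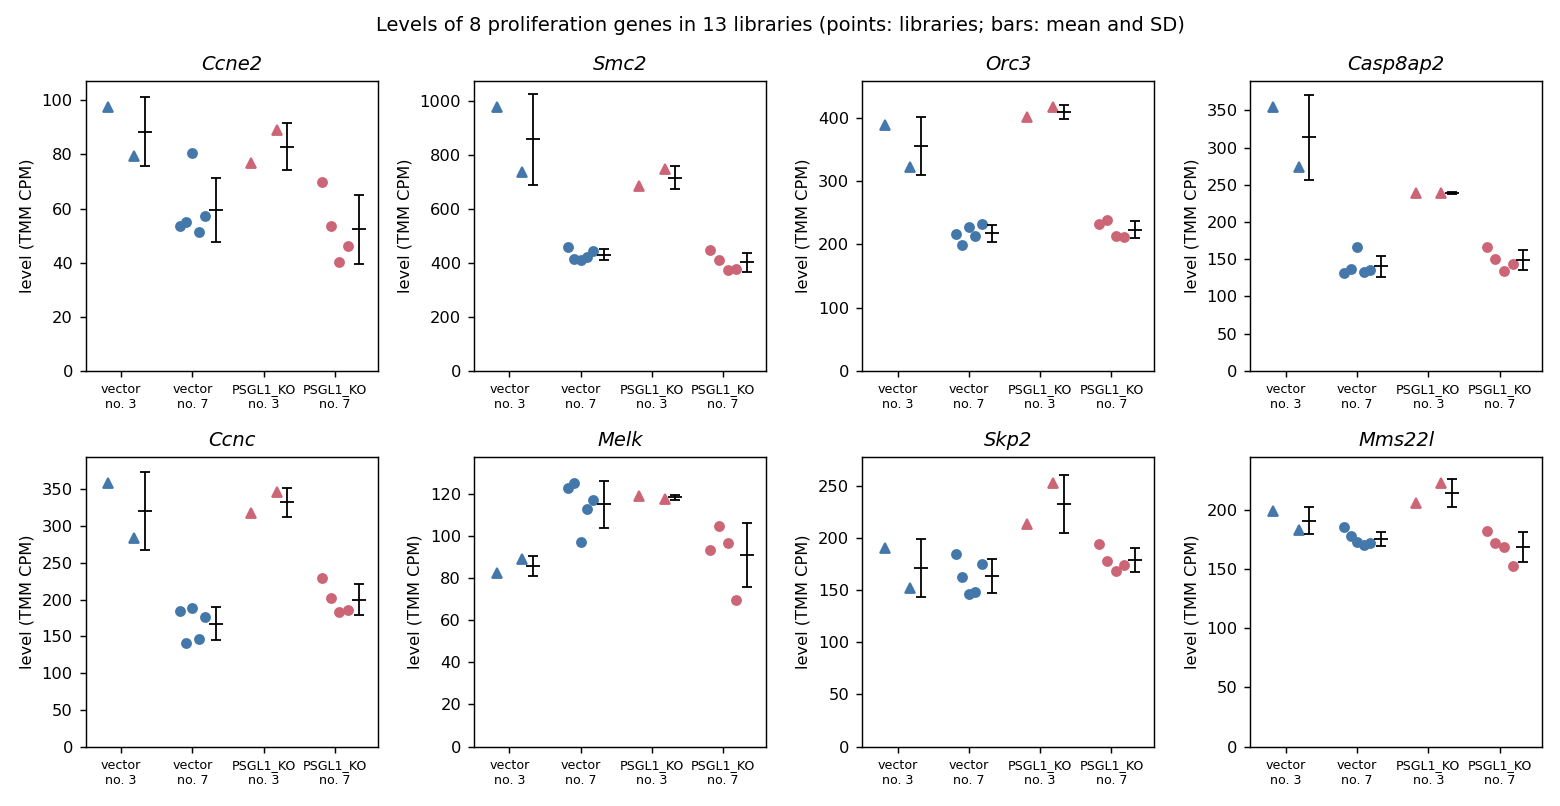
Level of each gene in TMM-normalised CPM (y axis, from 0) in the 13 libraries, split along the x axis by group and by the first digit of the file number, written as no. 3 or no. 7. Points are libraries, with triangles for file number 3 and circles for 7, and bars give mean and SD; in Smc2, Orc3, Casp8ap2 and Ccnc all 4 libraries with a 3 lie above all 9 with a 7.

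Ccne2 encodes cyclin E2, a partner of CDK2 at the entry to S phase (ENSMUSG00000028212.17, GRCm38 chromosome 4, 11191351 to 11204779). Its level was 97.4, 79.5, 53.5, 54.9, 80.6, 51.3 and 57.1 CPM in vector replicates 1 to 7, scaled by TMM as are all levels below. In PSGL1_KO replicates 1 to 6 it was 76.7, 89.0, 69.8, 53.4, 40.2 and 46.2 CPM. The groups overlapped, with 4 of 6 PSGL1_KO libraries inside the vector range, and the high libraries were replicates 1 and 2 of either group together with vector replicate 5. The means were 67.7 ± 18 CPM (SD, n = 7) in vector and 62.5 ± 19.0 CPM (SD, n = 6) in PSGL1_KO, and the log2FC was -0.12 (95% interval -0.55 to 0.32, edgeR adjusted p = 0.771). Between file numbers it fell, from 85.6 ± 9.44 CPM (SD, n = 4) with a 3 to 56.3 ± 12.1 CPM (SD, n = 9) with a 7, and the log2FC was -0.62 ± 0.15 (SE; adjusted p = 0.0022). Of its exon bases 17.4% overlap exons of Ints8 on the opposite strand, and the strand setting is not given, so reads there cannot be told apart.

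Skp2, the substrate receptor of the ligase that removes p27 (ENSMUSG00000054115.13, chromosome 15, 9111985 to 9155425), had the highest log2FC of the 8 towards PSGL1_KO, and it did not pass. Vector replicates 1 to 7 had 191, 152, 185, 162, 147, 148 and 175 CPM. PSGL1_KO replicates 1 to 6 had 213, 253, 195, 178, 168 and 174 CPM. PSGL1_KO replicates 1 to 3 were above every vector library, and the other 3 lay inside the vector range. The log2FC was 0.25, its 95% interval ran from -0.03 to 0.53, and the adjusted p was 0.246. Within file number 3 it was 0.48, on 2 libraries a group, with adjusted p = 0.0511, and within file number 7 it was 0.12 with adjusted p = 0.471. Between file numbers Skp2 had a log2FC of -0.22 with adjusted p = 0.125 over all 13 libraries and passed without vector replicate 2, at -0.36 with adjusted p = 0.0297.

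Orc3, a subunit of the origin recognition complex (ENSMUSG00000040044.12, chromosome 4, 34570796 to 34614944), separated the file numbers without overlap. It had 388 and 322 CPM in vector and 401 and 416 CPM in PSGL1_KO libraries with a 3. The 9 libraries with a 7 ran from 198 CPM through a median of 215 to 238 CPM. The level was 1.74 times as high with a 3 as with a 7, and its log2FC (7 minus 3) was -0.79 ± 0.10 (SE; adjusted p = 5.4e-06). Between groups the means were 257 ± 70.7 CPM (SD, n = 7) in vector and 285 ± 96.3 CPM (SD, n = 6) in PSGL1_KO. That log2FC was 0.15 (95% interval -0.29 to 0.59, adjusted p = 0.695).

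Mms22l, which with its partner TONSL helps stalled replication forks recover (ENSMUSG00000045751.17, chromosome 4, 24496451 to 24602950), varied least of the 8, with a coefficient of variation of 10.1% over the 13 libraries. Vector libraries ran from 169.9 CPM through a median of 178 to 199 CPM, and PSGL1_KO libraries from 152 through 177 to 223 CPM. The PSGL1_KO libraries reached both above and below the vector range, with 2 of 6 on each side. The log2FC was 0.03, its 95% interval ran from -0.23 to 0.29, with adjusted p = 0.903. Between file numbers it had a log2FC of -0.23 with adjusted p = 0.0726, while DESeq2 gave -0.24 with adjusted p = 0.0387, and without vector replicate 2 the edgeR test gave -0.32 with adjusted p = 0.0369.

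Casp8ap2 encodes FLASH, a protein needed to process replication-dependent histone messages (ENSMUSG00000028282.13, chromosome 4, 32615451 to 32653265). It had 354 and 273.5 CPM in the vector and 238 and 240 CPM in the PSGL1_KO libraries with a 3. With a 7 the lowest of 9 libraries had 131 CPM, the median 137 CPM and the highest 166 CPM. Both vector libraries with a 3 were above all others, and the level over all libraries was 1.92 times as high with a 3, a log2FC of -0.94 ± 0.12 (SE; adjusted p = 4.6e-06). Between groups the means were 190.1 ± 88.4 CPM (SD, n = 7) in vector and 179 ± 47.9 CPM (SD, n = 6) in PSGL1_KO, with all 6 PSGL1_KO libraries inside the vector range. The log2FC was -0.09, its 95% interval ran from -0.61 to 0.43, with adjusted p = 0.858.

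Smc2, the core ATPase of the condensin complexes (ENSMUSG00000028312.20, chromosome 4, 52439243 to 52488260), was the most abundant of the 8 per length. Its level was 975, 738, 457, 412, 411, 422 and 445 CPM in vector replicates 1 to 7. In PSGL1_KO replicates 1 to 6 it was 685, 746, 448, 411, 372 and 377 CPM. The 4 libraries with a 3 started at 685 CPM and the 9 with a 7 ended at 457 CPM, whatever the group. The fall from 786 ± 129 CPM (SD, n = 4) with a 3 to 417 ± 29.7 CPM (SD, n = 9) with a 7 gave -0.92 ± 0.11 (SE; adjusted p = 2.6e-06) on the log2 scale. For PSGL1_KO against vector the log2FC was -0.12 and its 95% interval ran from -0.62 to 0.38, with adjusted p = 0.793. With the file number as a covariate it was -0.15 ± 0.10 (SE) with adjusted p = 0.314, so the standard error fell from 0.24 while the gene still did not pass.

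Melk, a kinase of dividing cells whose transcript peaks towards mitosis (ENSMUSG00000035683.14, chromosome 4, 44300876 to 44364675), did not follow the genes that fell with file number 7. Vector replicates 1 to 7 had 82.2, 88.9, 123, 125, 96.8, 113 and 117 CPM. PSGL1_KO replicates 1 to 6 had 119, 117, 93.2, 105, 96.5 and 69.3 CPM. In vector the 2 libraries with a 3 were the lowest, and in PSGL1_KO they were the highest. Over all libraries neither comparison passed, with a log2FC of -0.09 (95% interval from -0.42 to 0.23, adjusted p = 0.758) for PSGL1_KO and 0.02 (-0.29 to 0.32, adjusted p = 0.94) for file number 7. Within vector libraries Melk was higher with a 7, at 0.47 with adjusted p = 0.0324, and within PSGL1_KO libraries it had -0.40 with adjusted p = 0.112. The PSGL1_KO effect was 0.50 within file number 3 (adjusted p = 0.052) and -0.34 within file number 7 (adjusted p = 0.0801).

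The test of that difference, the effect within 7 minus the effect within 3, gave Melk -0.80 ± 0.23 (SE) with adjusted p = 0.0641. It rests on 2 libraries with a 3 in each group. DESeq2 gave -0.84 with adjusted p = 0.0227, and the edgeR test passed without vector replicate 5 (-0.92, adjusted p = 0.0151), vector replicate 6 (-0.87, adjusted p = 0.0499) or PSGL1_KO replicate 3 (-0.87, adjusted p = 0.0381). In the other alternatives it did not pass, with adjusted p = 0.179 (-0.53) under scaling on name-checked genes, 0.23 without vector replicate 1, 0.162 without vector replicate 2 and 0.251 without PSGL1_KO replicate 2, the highest of those run. Of the 8 genes 0 passed this test in edgeR, against 2.11% of all IDs, and 1, Melk, in DESeq2, which called 5.10% of all IDs. At an unadjusted p below 0.05 there were 2 of 8, Melk and Casp8ap2, the latter with 0.47 and adjusted p = 0.219.

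Ccnc encodes cyclin C, which with CDK8 or CDK19 forms the kinase module of the Mediator complex and so acts in transcription more than in division (ENSMUSG00000028252.21, chromosome 4, 21727701 to 21759922). It had 359 and 283 CPM in the vector and 318 and 346 CPM in the PSGL1_KO libraries with a 3, and from 141 through a median of 184 to 229 CPM in the 9 libraries with a 7. The file numbers did not overlap, and the log2FC (7 minus 3) was -0.84 ± 0.11 (SE; adjusted p = 1e-05). All 6 PSGL1_KO libraries lay inside the vector range, and the log2FC between groups was 0.21, its 95% interval ran from -0.27 to 0.68, with adjusted p = 0.608. Exons of Tstd3 on the opposite strand overlap 5.4% of its exon bases.

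Every library with a 3 was above every library with a 7 in 4 of the 8 genes, beside 7.98% of all IDs and 15% of name-checked protein-coding genes. By level per length, in CPM per kb of exon, the order was Smc2 at 96.9 ± 34.7 (SD, n = 13), Orc3 at 44.3 ± 13.3, Ccnc at 44.3 ± 14.6, Melk at 34.8 ± 5.80, Mms22l at 28.5 ± 2.88, Casp8ap2 at 27.1 ± 10.3, Skp2 at 22.9 ± 3.70 and Ccne2 at 18.7 ± 5.11. Smc2 stood above Orc3, and Melk above Mms22l, by more than the larger SD of the pair. The other 5 neighbouring pairs differed by less than it.

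**Figure D2:**
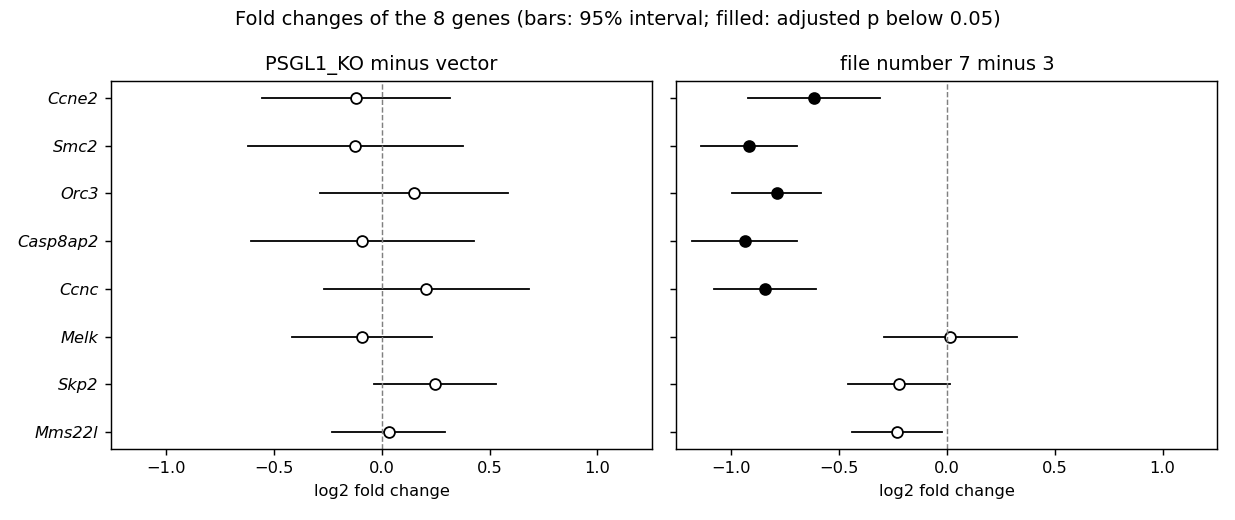
Log2 fold change (x axis) of each of the 8 genes (y axis) for PSGL1_KO minus vector on the left and file number 7 minus 3 on the right. Points are edgeR estimates, bars their 95% intervals, and filled points passed at an adjusted p below 0.05; all 8 are open on the left, and 5 are filled on the right, all below 0.

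A mean of the 8 genes on the log2(CPM + 1) scale, each centred on its mean over the 13 libraries, gave 1 value per library. It was 0.48, 0.23, -0.12, -0.21, -0.10, -0.25 and -0.13 in vector replicates 1 to 7. It was 0.38, 0.48, -0.02, -0.13, -0.28 and -0.31 in PSGL1_KO replicates 1 to 6. The 4 libraries with a 3 were all above 0 and the 9 with a 7 all below it. The group means were -0.02 ± 0.27 (SD, n = 7) in vector and 0.02 ± 0.34 (SD, n = 6) in PSGL1_KO, a difference of 0.04, which was smaller than the spread in either group. It changed sign with the scaling, to -0.20 on name-checked genes, and ran from -0.057 to 0.12 when 1 library was left out. Within file number 7 the difference was -0.02 and within file number 3 it was 0.08. Between file numbers the means were 0.39 ± 0.12 (SD, n = 4) and -0.17 ± 0.10 (SD, n = 9). No test was run on the score, since its members were chosen with results of these libraries known.

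**Figure D3:**
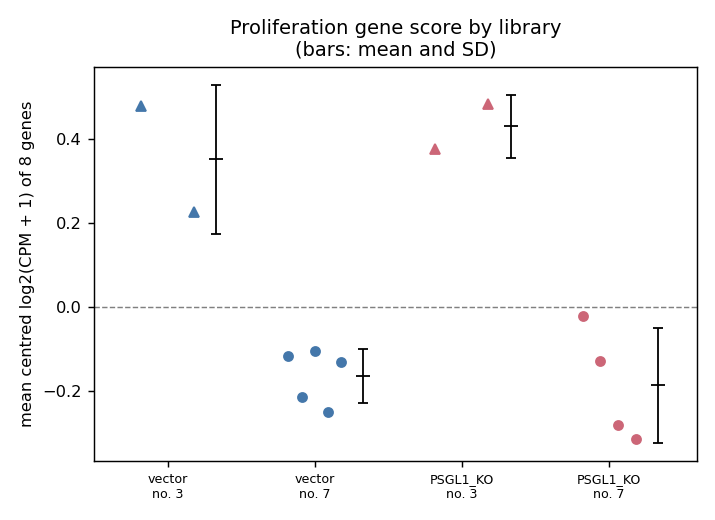
Mean centred log2(CPM + 1) of the 8 genes (y axis) per library, by group and first digit of the file number (x axis, no. 3 or no. 7). Points are libraries and bars give mean and SD; libraries with a 3 lie between 0.23 and 0.48 and those with a 7 between -0.31 and -0.02.

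Across the 13 libraries the 5 genes that fell with file number 7 had Pearson r of log2 levels from 0.79 to 0.96 over their 10 pairs. They were grouped for differing between file numbers in these same libraries, so a high r over all 13 was built in. Mms22l and Skp2, which did not pass, had r with them of 0.69 to 0.85 and of 0.38 to 0.66. After the mean of each of the 4 combinations of group and file number was removed, r among the 5 genes was 0.51 to 0.90. With these 5 genes Mms22l then had r of 0.39 to 0.74 and Skp2 of 0.25 to 0.86, which overlaps that range. Over the 13 libraries Melk had r from -0.27 to -0.0032 with these 5 genes, 0.41 with Mms22l and 0.20 with Skp2. With the same means removed Melk had -0.32 to 0.15, 0.57 and 0.21. All values share the libraries, their scaling and their depth, and are given as a description. Among 242 other name-checked protein-coding genes at 20 CPM or more, the 5 whose log2 levels followed the mean of the 8 genes most closely were Mrpl50 (r = 0.97), Brix1 (0.97), Cox6c (0.97), Coq3 (0.95) and Ubxn2b (0.95) over the 13 libraries. With deviations from the group means in place of levels r was 0.97, 0.97, 0.98, 0.96 and 0.95, and with the means of group and file number removed it was lower, at 0.88, 0.73, 0.80, 0.62 and 0.59. Mrpl50, a protein of the mitochondrial ribosome, had 275 ± 39.9 CPM (SD, n = 4) with a 3 and 171 ± 21.7 CPM (SD, n = 9) with a 7. Brix1, a ribosome assembly factor, had 577 ± 60.0 and 346 ± 27.6 CPM. These levels are a description, since genes picked for following a score that separates the file numbers had to differ between them. Exons of Cox6c, a subunit of cytochrome c oxidase, overlap Vps13b on the opposite strand.

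The stretches hold 19 other listed genes of cell cycle control, replication and DNA damage response, and 17 had enough counts to be tested. Mos and Fbxo43, both of the germ line, had at most 5 and 11 counts in any library. In PSGL1_KO against vector 0 of the 17 passed with edgeR, 2 had an unadjusted p below 0.05, and 1, Rad1, passed with DESeq2, at a log2FC of -0.37 with adjusted p = 0.0462. Their median log2FC was 0.01. With the file number as a covariate 3 passed: Rad1, part of the checkpoint clamp, at -0.39 (adjusted p = 0.0088), and Rpa3, a subunit of the single-strand binding protein RPA, at -0.42 (0.0244), were lower, and the kinase Stk3, at 0.34 (0.0316), was higher. That fit called 25.8% of all IDs, a larger share than 3 of 17. These 3 were named after their values had been seen.

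Between file numbers 7 of the 17 were lower and 3 higher with a 7, beside 37.8% and 14% of the name-checked protein-coding genes they belong to, and 18.9% and 20.9% of all IDs. Ube2r2, a ubiquitin-conjugating enzyme that works with SCF ligases, was higher with a 7, at 373 ± 34.1 CPM (SD, n = 9) beside 169 ± 47.0 CPM (SD, n = 4) with a 3 (log2FC 1.16, adjusted p = 3.7e-06). Anp32b, a nuclear histone chaperone, rose by 0.78 on the log2 scale (adjusted p = 8.8e-05). Stk3 fell by 0.76 on the log2 scale (adjusted p = 4.8e-05), Smu1, a splicing factor, by 0.71 (9.2e-05), Xpa, a nucleotide excision repair protein, by 0.67 (0.000105) and Rpa3 by 0.69 (0.00055). Smu1 and Xpa share exon bases with Dnaja1 and Ncbp1 on the opposite strand. The 7 that did not pass had log2FC from -0.30 to 0.22.

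**Figure D4:**
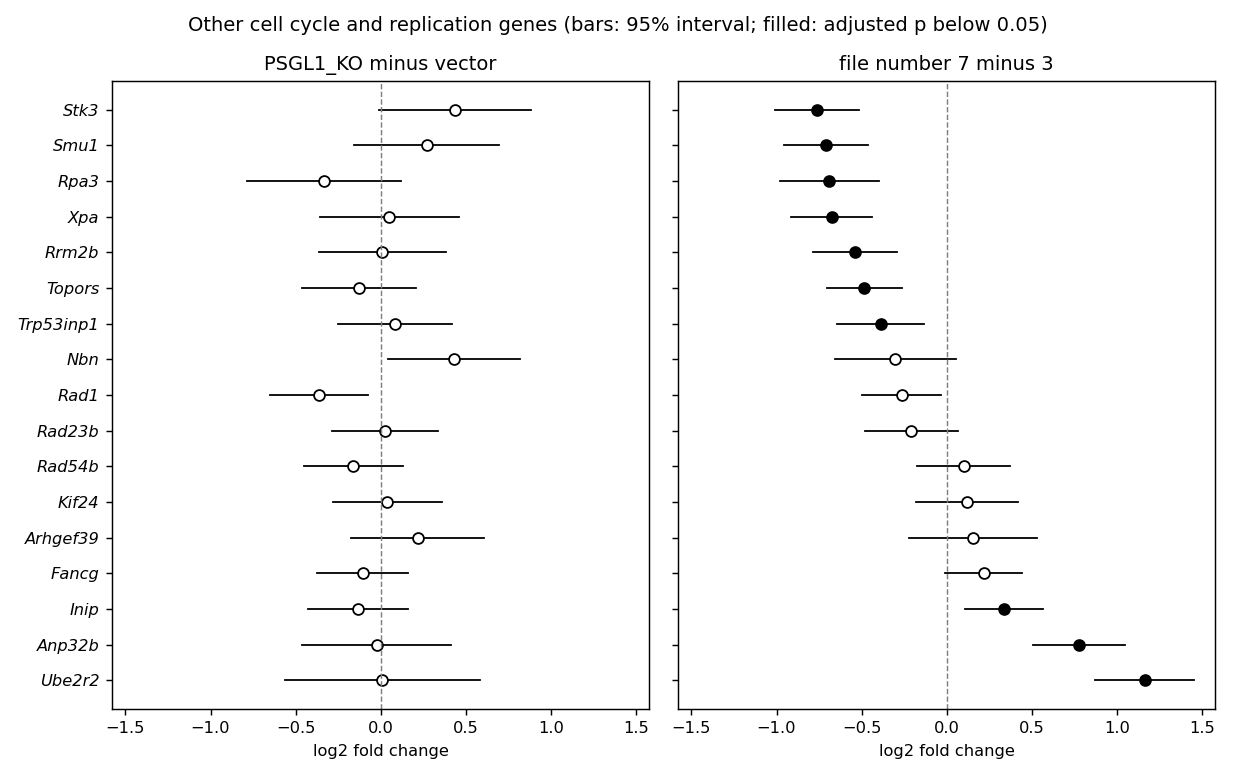
Log2 fold change (x axis) of 17 other cell cycle, replication and repair genes (y axis) for PSGL1_KO minus vector on the left and file number 7 minus 3 on the right. Points are edgeR estimates with 95% intervals, filled where adjusted p was below 0.05; 0 are filled on the left, and 7 below 0 and 3 above 0 are filled on the right.

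Markers of other cells moved between the groups, where 0 of the 8 genes passed, and between file numbers, and their part in these results was not tested. Of 5 markers of myeloid and B cells, all in the stretches, 4 (Lyn, Cd72, Tfec and Atp6v0d2) were higher in PSGL1_KO and 0 lower, and their summed level was 104 to 235 CPM in vector and 518 to 816 CPM in PSGL1_KO libraries. Of 12 stromal markers 10 were tested and 5 (Glipr2, Svep1, Lpar1, Reck and Sdc2) were higher in PSGL1_KO, with 0 lower. The summed level of the 12 was 931 to 2505 CPM in vector and 1034 to 4648 CPM in PSGL1_KO libraries. Col1a2 was the most abundant of them, with means of 1428 ± 536 and 2617 ± 1209 CPM (SD), and did not pass (edgeR adjusted p = 0.0833). Of 4 genes listed as T-lineage markers Sit1 was lower, Bach2 was higher, and Il7r and Tox did not pass. Bach2 was low throughout, with 6 to 34 counts per library. The summed level of the 4 was 434 to 606 CPM in vector and 363 to 557 CPM in PSGL1_KO libraries. Tox was the most abundant of them, with means of 371 and 316 CPM. Over these lists 0 markers had 0 counts in all libraries. Between file numbers the summed levels overlapped in each list, at 434 to 557 CPM with a 3 and 363 to 606 CPM with a 7 for T-lineage markers, 104 to 535 and 185 to 816 CPM for myeloid and B markers, and 1629 to 4061 and 931 to 4648 CPM for stromal markers. With a 7, 2 T-lineage markers (Il7r, log2FC -0.42, adjusted p = 0.0309, and Sit1, -0.51, 0.0189) were lower, and 2 myeloid and B markers (Cd72 and Atp6v0d2) were higher. Among the 10 stromal markers tested 2 were higher and 5 lower. Beside them, 14% of name-checked protein-coding genes were higher and 37.8% lower with a 7, and 20.9% and 18.9% of all IDs. Exons of Tesk1 on the opposite strand overlap 41.6% of the exon bases of Cd72.

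The directions between groups depended on the scaling. With TMM factors from name-checked protein-coding genes alone the median log2FC of all IDs for PSGL1_KO moved from -0.01 to -0.24, and Ccnc, Orc3 and Mms22l changed sign, to -0.043, -0.11 and -0.21, with 0 of 8 passing. For file number 7 that scaling moved the median of all IDs from 0.04 to 0.24, and the same 5 genes were lower, with log2FC from -0.74 to -0.41. In that fit Casp8ap2 had -0.74, Smc2 -0.72, Ccnc -0.64, Orc3 -0.59 and Ccne2 -0.41, the last with adjusted p = 0.0319.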

How the data were processed

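The authors deposited raw read counts per versioned Ensembl gene ID, 1 table per library. The submitters' processing notes name HISAT2, SAMtools, HTSeq and mm10, without versions, annotation release or strand setting. Each table's 5 HTSeq summary rows (87.5% to 89.5% of its total) entered neither library sizes nor tests. Symbols matched 52073 of 56923 IDs, and coordinates are those of GENCODE M21 (GRCm38). Names were used only on chromosome 4 (3537090 to 59801589), chromosome 6 (3457096 to 17348340) and chromosome 15 (9071260 to 38079563). Housekeeping genes had high counts in the stretches on chromosomes 4 and 15. The stretch on chromosome 6 held no listed housekeeping gene, so names there lack that check. The mismatch elsewhere was not explained. Replicates differed by more than sampling noise (lowest chi-square per ID 3.22), which cannot tell separate tumours from separate preparations of 1 tumour. Vector replicates 3, 4 and 7 were closest, at 3.22 to 3.98 with one another, beside 9.79 or more in the other vector pairs. Each library was counted as 1 sample.

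Counts were fitted with edgeR 4.0.16 in R 4.3.3 (TMM, filterByExpr, robust two-sided quasi-likelihood test), with group alone, group and first digit of the file number, or their interaction. The SE is the log2FC over the square root of F. CPM are counts per 1000000 TMM-scaled counts, except those of Rps20 and Pabpc1, which were not TMM-scaled. On simulated data the fit for file numbers recovered fewer changed genes than the fit for groups, and fewer than first required of it; that requirement was then lowered. Alternatives were DESeq2 1.42.0, other scalings, no filter, a covariate, a replicate block and leaving out each library. All 8 genes are named, other cycle genes where they passed (at most 6, by smallest p), and the 5 genes most like the score. Genes, lists, motifs and the split by file number were chosen with earlier results of these data known. A gene of the cell cycle list is not reported here, and the counts of that list leave it out.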

Additional observations from a re-analysis of the deposited data

How the results depend on the processing

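The call of 0 of 8 genes for PSGL1_KO held under each alternative run, and the 5 genes lower with file number 7 passed in each fit of that comparison, leaving out any 1 library included, where 5 to 7 of 8 passed. Sign changes among genes that did not pass were, for PSGL1_KO, Melk at 0.50 within file number 3, Mms22l at -0.062 and Casp8ap2 at 0.073 within file number 7, and Orc3, Ccnc and Mms22l at -0.11, -0.043 and -0.21 with scaling on name-checked genes. For file number 7 it was Melk, at -0.40 within PSGL1_KO libraries. For the difference of effects they were Ccne2, Orc3 and Mms22l, at 0.19, 0.11 and 0.059 with that scaling. Leaving out 1 library moved the PSGL1_KO log2FC of Casp8ap2 between -0.19 and 0.13, Melk between -0.15 and 0.012, Mms22l between -0.022 and 0.10 and Smc2 between -0.25 and 0.075, that of Melk for file number 7 between -0.12 and 0.12, and the difference of effects of Ccne2 between -0.32 and 0.018 and of Smc2 between -0.049 and 0.30. The cause was not tested.

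IDs called for PSGL1_KO numbered 1512 (940 higher, 572 lower), 2689 once the digit was a covariate, 2447 for libraries with a 3 alone, and 577 higher and 1334 lower with scaling on name-checked genes, where calls for file number 7 were 3079 higher and 1148 lower instead of 2178 and 1966. The score difference between file numbers was -0.56, and -0.35 with that scaling. IDs called for the difference of effects numbered 220, 532 with DESeq2 and 3 to 661 leaving out 1 library (3 without PSGL1_KO replicate 2, 661 without vector replicate 5), with 1 of 8 genes called in DESeq2 and 0 to 1 leaving out 1 library. Replicate numbers are shared by the groups, but same-numbered libraries deviated together in only some of 6 pairs (r from -0.05 to 0.63), and 2 of 6 libraries in either group correlated best with their own number. With the replicate block 2138 IDs and 0 of 8 genes were called. Each of the 8 genes had 222 counts or more in every library.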
